A study of Schmidtea mediterranea with 32 samples.

Results

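The 8 libraries described here are poly(A) RNA of whole planarians (Schmidtea mediterranea, a free-living flatworm) under RNAi against nhr-1, 4 sampled after 6 feedings and 4 after 11 feedings. They are 8 of the 32 libraries of the series, chosen by their labels, with earlier results of these data known. All animals are of the sexual biotype labelled S2F2. The series also sampled nhr-1 RNAi after 4 and 8 feedings, with 4 libraries each, and control RNAi, labelled UNC, with 15 libraries at 4, 6, 8 and 11 feedings, of which 3 are at 6. A further control library labelled 7 feedings was not used. The comparison asks whether the knock-down state still moved after its onset. It needs no control library at 11 feedings, where the controls were uneven. The labels do not say how many animals made up a library or whether replicates came from separate cultures, so p-values measure the spread between these libraries only.

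Nuclear hormone receptors are transcription factors whose activity can depend on small lipophilic ligands. In this species nhr-1 is known from earlier work as a receptor needed for the development and upkeep of the reproductive system. Sexual planarians are hermaphrodites with testes, ovaries, yolk glands and copulatory organs, and these organs regress when the animals lose the signals that maintain them. RNAi in planarians is commonly done by feeding double-stranded RNA, so the number of feedings counts the time under knock-down. In whole-animal RNA, fewer cells of a type and less RNA per cell cannot be told apart.

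Reads were counted on named sequences, contigs here, and only those with the prefix SmedSXL are described. A second large set in the same table has the prefix SmedASXL. The deposited identifiers are not paired with gene names, so contigs are grouped by their behaviour, the target nhr-1 was not analysed here and tissue markers could not be checked. The SmedSXL counts of the 8 libraries ran from 5806930 to 9128850. Of 93783 SmedSXL contigs, 85492 had at least 1 count in the 8 libraries and 21239 passed the filter on low counts.

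Over all contigs, the 4 libraries at 6 feedings were less alike than those at the later time points. The median contig had a standard deviation of log2 normalised counts of 0.43 among the libraries at 6 feedings, 0.20 at 8 and 0.26 at 11. For the contigs lower than control at 8 feedings, described further on as lost, it was 0.42, 0.34 and 0.43, so these were as variable at 11 feedings as at 6. On the first principal component of the 12 knock-down libraries at 6, 8 and 11 feedings, which carried 47.1% of the variance, those at 6 feedings stood at -38.4 (replicate 1), 26.1 (s2), 66.4 (s1) and 106 (s3). Those at 11 feedings stood at -44.7 (replicate 1), -17.3 (s4), -3.81 (s3) and 6.47 (s2). The libraries at 6 feedings spread over most of the component, and replicate 1 of that group lay among the later libraries. The most abundant contig, SmedSXL_088910 with 1006 bases, took 11.0%, 19.0%, 18.4% and 22.8% of the SmedSXL counts in replicates 1, s1, s2 and s3 at 6 feedings. At 11 feedings it took 11.1%, 19.4%, 13.2% and 13.7% in replicates 1, s2, s3 and s4. The means were 17.8% ± 4.90 (SD, n = 4) and 14.3% ± 3.57 (SD, n = 4), a difference within the spread of the libraries (two-sided exact permutation test, p = 0.371, with 0.0286 the lowest p that 4 against 4 can give).

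From 6 to 11 feedings no single SmedSXL contig passed the test with all libraries and the filter on low counts. edgeR's quasi-likelihood test on the 16 knock-down libraries called 0 of 21239 contigs (0% called) at a Benjamini-Hochberg adjusted p under 0.05, and the smallest adjusted p was 0.59. Before adjustment, 911 contigs were lower at p under 0.05 (4.29% of those tested) and 342 were higher (1.61%), 5.9% of contigs together. These counts depended on single libraries. Without replicate s3 at 6 feedings they were 410 lower and 166 higher of 22002 tested. Without replicate 1 at 6 feedings they were 1519 lower and 1722 higher of 21866. Of the other tools run, DESeq2 called 34 contigs lower (0.195%) and 2 higher (0.0115%). With limma's voom, libraries weighted by their quality, 34 were called lower (0.16%) and 1 higher (0.00471%). With no filter, edgeR itself called 147 lower and 22 higher, but of 90265 SmedSXL contigs tested. It called 41 lower and 1 higher of 20880 with the libraries named with s alone. Without replicate 1 at 11 feedings it called 6 lower of 21916. The libraries at 8 feedings divide the interval. From 6 to 8 feedings edgeR called 0 contigs (0% called, 1608 with an unadjusted p under 0.05) and from 8 to 11 feedings 0 (0% called, 132 with an unadjusted p under 0.05). Those are 7.57% and 0.621% of the contigs tested.

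A missed threshold does not show that a contig held its level, so the width of the estimates is given too. For 10462 of the 21239 contigs (49.3%) the 95% interval of the change from 6 to 11 feedings lay inside a 2-fold change in either direction. The estimate itself was at least 2-fold lower for 511 contigs (2.41%) and at least 2-fold higher for 313 (1.47%). All 4 libraries at 11 feedings lay below all 4 at 6 feedings for 460 contigs (2.17%), and above them for 323 (1.52%).

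Classes of contigs were then followed, formed from libraries other than the 8 compared. In edgeR's test on the 8 libraries at 8 feedings alone, 4 of nhr-1 RNAi and 4 of control, 4723 of 20212 SmedSXL contigs were called (23.4%). Of these, 4097 were lower under nhr-1 RNAi (20.3%) and are named lost contigs here, and 626 were higher (3.1%) and are named raised contigs. The other 15489 are named remaining contigs. Passing the filter of the knock-down fit were 3857 lost contigs, all 626 raised contigs and 15431 remaining contigs. The values of the classes at 8 feedings chose them and are shown as description. The values at 6 and 11 feedings did not choose them. The knock-down libraries at 8 feedings add to the comparison through the shared estimate of the spread.

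The lost contigs stood lower still at 11 than at 6 feedings, by a small amount. Their median log2 fold change was -0.40, and 88.9% of them were below 0, against 55.0% of all tested contigs and a median of -0.05. In 662 of the 3857 (17.2%) the contig was lower at an unadjusted p under 0.05, and in 3 it was higher, beside 4.29% lower and 1.61% higher over all tested contigs. Their level in a library is given as the median log2 difference from the mean of the controls at 8 feedings. At 6 feedings it was -1.73 in replicate 1, -1.32 in s1, -1.24 in s2 and -1.16 in s3. At 11 feedings it was -2.07 in replicate 1, -2.09 in s2, -1.63 in s3 and -1.34 in s4. The groups overlap, because replicate 1 at 6 feedings lay below replicates s3 and s4 at 11 feedings. The group means were -1.36 ± 0.26 (SD, n = 4) and -1.78 ± 0.36 (SD, n = 4), with -1.66 ± 0.28 (SD, n = 4) at 8 feedings and -0.25 ± 0.21 (SD, n = 4) at 4 feedings. Controls stood at 0.22 ± 0.17 (SD, n = 3) at 6 feedings and 0.08 ± 0.28 (SD, n = 4) at 11. Scaled by total counts alone, the median of all contigs was 0.07 in place of -0.05, and the medians were -0.25 for lost, 0.34 for raised and 0.12 for remaining contigs.

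The direction was the same within either kind of replicate name. The single libraries named 1 differed by -0.33 and the means of the 3 libraries named with s by -0.45. The summed normalised counts of the lost contigs, as a share of their sum in the controls at 8 feedings, were 22.4%, 29.9%, 30.2% and 34.1% in replicates 1, s1, s2 and s3 at 6 feedings. In replicates 1, s2, s3 and s4 at 11 feedings they were 19.7%, 19.8%, 23.4% and 26.0%. Replicate 1 at 6 feedings was inside the range at 11, and the other 3 libraries at 6 were above it. This order depends on the scaling factors (TMM) by which the sums are divided. The factors were 1.21, 0.92, 1.02 and 0.83 in replicates 1, s1, s2 and s3 at 6 feedings. At 11 feedings they were 1.17, 0.96, 1.09 and 1.12 in replicates 1, s2, s3 and s4. Whether the order holds under total counts alone was not tested. By the same share of summed counts the controls averaged 81.8% ± 13.2 (SD, n = 3) at 6 feedings and 128% ± 41.8 (SD, n = 4) at 11. Control replicates 1, s1, s2 and s3 at 11 feedings stood at 83.5%, 113%, 131% and 183%. Their scaling factors were 1.35, 1.03, 0.365 and 0.353, so the high control mean at 11 rests on the libraries scaled most. No rise in controls is read from it.

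The raised contigs differed in the opposite direction. Their median log2 fold change from 6 to 11 feedings was 0.23, and 14.7% of them were below 0. Their level above the controls at 8 feedings was 0.66, 0.54, 0.57 and 0.24 on the log2 scale in replicates 1, s1, s2 and s3 at 6 feedings. At 11 feedings it was 0.75, 0.71, 0.72 and 0.76 in replicates 1, s2, s3 and s4. All 4 values at 11 feedings were above all 4 at 6, and their spread was small (0.73 ± 0.02, SD, n = 4, against 0.50 ± 0.18, SD, n = 4). The libraries named 1 differed by 0.09, and the means of those named with s by 0.28. Their summed counts were 160%, 252%, 143% and 163% of the control sum in replicates 1, s1, s2 and s3 at 6 feedings, and 197%, 340%, 241% and 277% in replicates 1, s2, s3 and s4 at 11. On this sum, which the abundant contigs weigh on most, replicate s1 at 6 feedings was above replicates 1 and s3 at 11. Replicate s3 at 6 feedings had the lowest median level, and of the 8 libraries it was also the one with the largest share of the most abundant contig. Without it the median change of the raised contigs was 0.18, and without replicate 1 at 6 feedings it was 0.36.

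The remaining contigs had a median change of 0.00 on the log2 scale, with 49.7% below 0. This median differed by abundance, as given further on. Their level was 0.22, 0.15, 0.21 and 0.05 in replicates 1, s1, s2 and s3 at 6 feedings and 0.24, 0.17, 0.20 and 0.18 in replicates 1, s2, s3 and s4 at 11. These values overlap. A further 1325 tested contigs had no test at 8 feedings, and their median change was 0.19. The steps before and after 8 feedings share the libraries that chose the classes, so they are a description: for lost contigs the median was -0.35 from 6 to 8 feedings and -0.06 from 8 to 11, and for raised contigs 0.30 and -0.04.

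**Figure D1:**
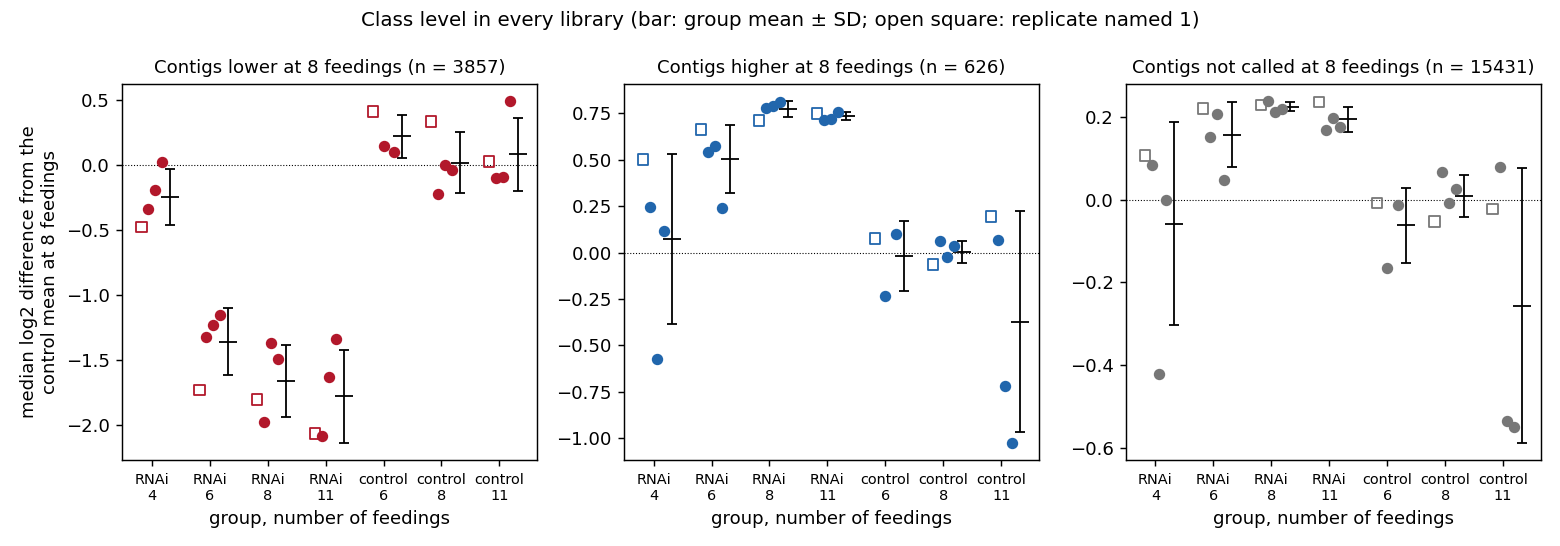
Median log2 difference of each contig class from the control mean at 8 feedings (y axis), with 1 point per library, by group and number of feedings (x axis, controls at 6, 8 and 11). Black bars are group means with SD and open squares are the replicates named 1. Lost contigs averaged -1.36 at 6 and -1.78 at 11 feedings under nhr-1 RNAi with overlapping libraries, and raised contigs averaged 0.50 and 0.73 without overlap.

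**Figure D2:**
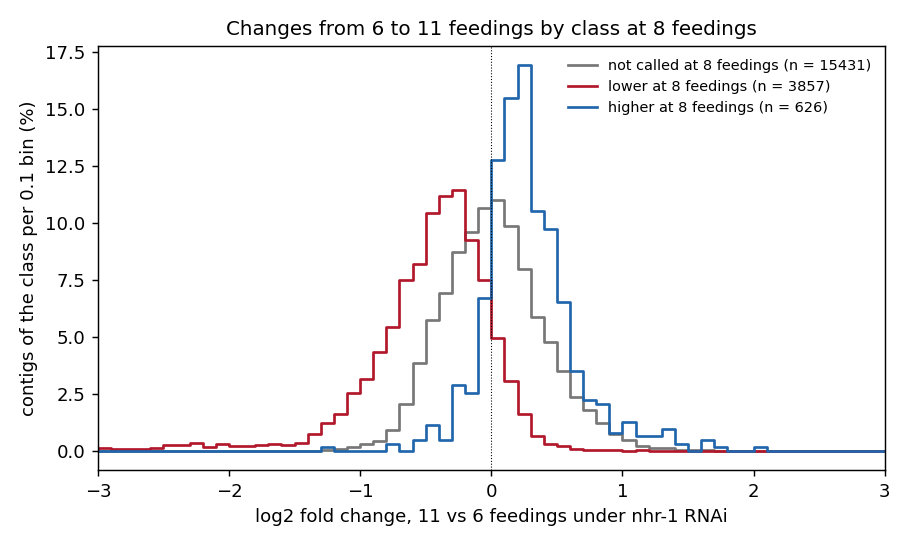
Distribution of the log2 fold change from 6 to 11 feedings under nhr-1 RNAi (x axis) as the percent of contigs of a class in each bin of 0.1 (y axis), with a line for each class. The medians are -0.40 for lost, 0.23 for raised and 0.00 for remaining contigs, and the 3 distributions overlap widely.

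The median change was more negative for contigs that were lost more deeply at 8 feedings. The median log2 fold change from 6 to 11 feedings was -0.24 for the 838 lost contigs under 2-fold lower at 8 feedings and -0.32 for the 1137 contigs 2- to 4-fold lower. It was -0.47 for the 1420 contigs 4- to 8-fold lower and -0.89 for the 462 contigs over 8-fold lower. Length differed along the same order, with median lengths of 1313.5, 1199, 1123.5 and 716.5 bases, and its part in the order of the changes was not tested. In this last set 97.2% were below 0 and 191 (41.3%) had an estimate at least 2-fold lower. Its level was -3.20, -2.02, -2.33 and -1.94 in replicates 1, s1, s2 and s3 at 6 feedings, and -3.50, -3.45, -3.01 and -2.57 in replicates 1, s2, s3 and s4 at 11. The 3 libraries named with s at 6 feedings were above every library at 11 feedings, and replicate 1 at 6 feedings lay within the range at 11. The libraries named 1 differed by -0.29, and the means of those named with s by -0.91. Its summed counts were 3.60%, 7.99%, 6.80% and 11.1% of the control sum in replicates 1, s1, s2 and s3 at 6 feedings and 2.96%, 3.27%, 4.04% and 5.14% in replicates 1, s2, s3 and s4 at 11. Control libraries at 6 feedings were themselves at 46.7% ± 5.87 (SD, n = 3) of it.

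Onset at 4 feedings divided the lost contigs unevenly. Those at least 4-fold lower than control at 4 feedings, by the estimate of a fit on the 8 libraries there, numbered 50. That fit called 1 of 18229 contigs (0.00549%), so the division rests on estimates, not on calls. These early contigs stood at -6.44, -4.60, -4.93 and -5.22 in replicates 1, s1, s2 and s3 at 6 feedings. At 11 feedings their level was -6.48 in replicate 1 and between -6.24 and -5.97 in the other 3 libraries. Again the libraries named with s at 6 feedings were above all those at 11, and replicate 1 at 6 feedings was within their range. The libraries named 1 differed by -0.04 and the means of those named with s by -1.16. In controls the early contigs were not level either, at -1.78 ± 0.10 (SD, n = 3) at 6 feedings and 0.52 ± 0.97 (SD, n = 4) at 11. Control libraries of 1 time point also differed. Replicates 1, s1, s2 and s3 stood at -1.45, 0.80, -1.06 and -2.38 at 4 feedings and at -1.42, 0.76, 0.66 and -0.17 at 8. The class and its reference level thus rest on uneven controls. The differences of -0.04 and -1.16 are between library medians. The median over the 50 early contigs of their own fitted change was -0.42. Late contigs, less than 2-fold lower at 4 feedings, numbered 3720, with a median change from 6 to 11 feedings of -0.39. The 77 contigs between these limits had a median fitted change of -1.14, and 40 of them (51.9%) had an estimate at least 2-fold lower. The remaining 10 lost contigs had no test at 4 feedings.

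**Figure D3:**
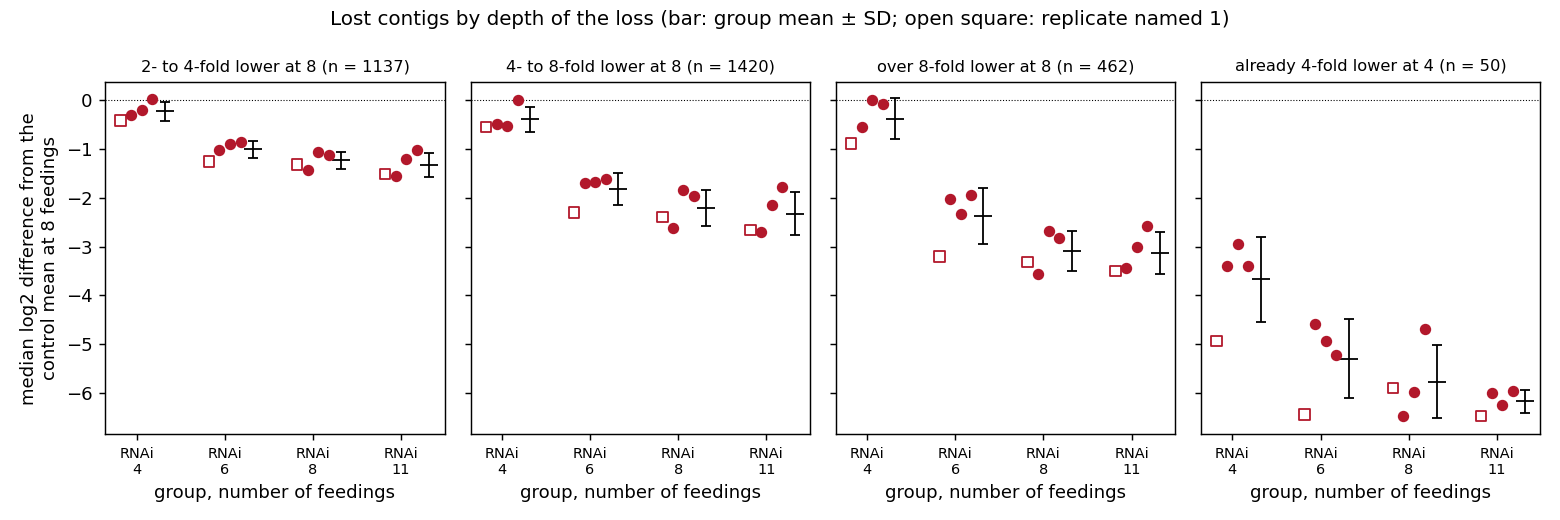
Median log2 difference from the control mean at 8 feedings (y axis) for lost contigs split by the depth of their loss at 8 or 4 feedings, in each nhr-1 RNAi library (points) by number of feedings (x axis). Bars are group means with SD and open squares are the replicates named 1. The 462 contigs over 8-fold lower at 8 feedings averaged -2.37 at 6 and -3.13 at 11 feedings.

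Contig length moved with these changes, in the remaining contigs as well as in the lost ones. Among remaining contigs the median change was -0.22 for the 1763 under 500 bases, -0.22 for the 3723 from 500 to under 1000 bases and 0.07 for the 9945 of 1000 bases or more. Among lost contigs it was -0.82 (410 contigs), -0.60 (1164 contigs) and -0.28 (2283 contigs). Lost contigs were thus lower than remaining contigs of the same length class by 0.61, 0.38 and 0.34 on the log2 scale. Replicate s3 at 6 feedings stood apart in length: its remaining contigs under 500 bases were at 0.72 and those of 1000 bases or more at -0.14. In the other 3 libraries at 6 feedings these values were 0.22 to 0.38 and 0.05 to 0.25, and in the 4 libraries at 11 feedings 0.21 to 0.29 and 0.13 to 0.26. In controls the change from 6 to 11 feedings ran the other way over length. By the same length classes its median was 0.57, 0.33 and -0.11 for remaining contigs and 1.07, 0.23 and -0.25 for lost contigs. Raised contigs, with a median length of 1610 bases, were not split by length. The part of this length pattern in the changes of single contigs or of the raised class was not tested.

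**Figure D4:**
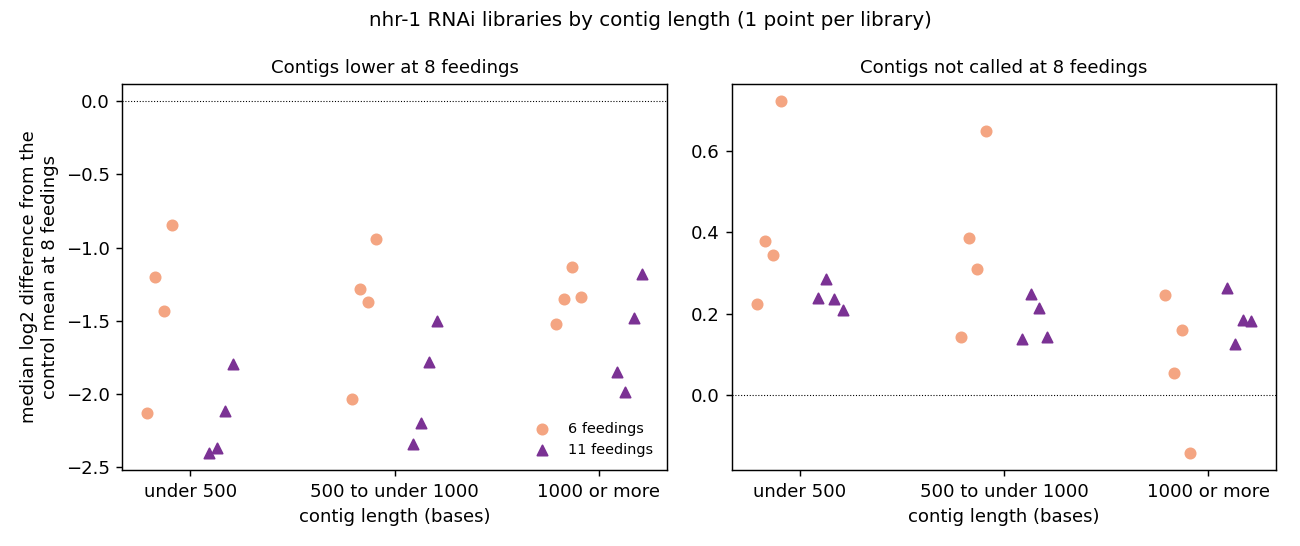
Median log2 difference from the control mean at 8 feedings (y axis) of lost and remaining contigs by contig length in bases (x axis), with 1 point per nhr-1 RNAi library. Circles are libraries at 6 feedings and triangles those at 11. Remaining contigs under 500 bases reached 0.72 in replicate s3 at 6 feedings and stayed between 0.21 and 0.29 at 11 feedings.

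The lost contigs differed less by abundance and by a counterpart among the SmedASXL contigs. By their level in the controls at 8 feedings, the median change was -0.44 for the 2212 lost contigs at 1 to 10 CPM (the TMM-normalised read count), -0.32 for the 1531 at 10 to 100 CPM and -0.60 for the 79 over 100 CPM. A further 35 were under 1 CPM, with a median of -0.56. Among remaining contigs the median change was 0.27 for the 2755 under 1 CPM, of which 29.5% were below 0. It was -0.04 for the 7856 at 1 to 10 CPM, -0.01 for the 4430 at 10 to 100 CPM and -0.17 for the 390 over 100 CPM. The 112 raised contigs under 1 CPM had a median of 0.42. A rise was thus also seen in scarce contigs not called at 8 feedings. A SmedASXL contig with a closely similar count profile was found for 2578 of the 3857 lost contigs (66.8%), 470 of the 626 raised (75.1%) and 11380 of the remaining contigs (73.7%). The median change of the lost contigs was -0.38 with such a match and -0.42 without. For remaining contigs it was -0.03 with a match and 0.16 without.

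The contigs that DESeq2 and limma's voom called all came from the lost class on the lower side. Each tool called 34 contigs lower, 21 of them shared, which is 47 contigs in either list, and all 47 were lost contigs. By comparison, lost contigs were 3857 of the 21239 tested. In the edgeR fit the 47 had changes of -4.75 to -1.06 on the log2 scale with a median of -2.75. They were short, with a median length of 496 bases and 41 of 47 under 1000 bases, against a median of 1142 bases for the lost class. They were also abundant in controls, with a median of 51.1 CPM at 8 feedings. Their median level was 9.99 CPM at 6 and 1.45 CPM at 11 feedings. All 4 libraries at 11 feedings lay below all 4 at 6 for 15 of the 47, beside 460 of all 21239 tested contigs. In the others of the 47 the groups overlapped. None of the 47 were early contigs, 38 were late and 9 fell between, and 24 were over 8-fold lower at 8 feedings. Of the 3857 lost contigs, 50 were early, 3720 late and 77 between, and 462 were over 8-fold lower. Early contigs were thus few to begin with. These 47 contigs were picked by the same contrast, so their sizes are a description.

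Because identifiers carry no gene names, 2 contigs lower and 2 higher at 11 feedings are given in full. They had the smallest unadjusted p among contigs whose groups did not overlap and whose mean over the 8 libraries was at least 1 CPM. A contig could reach that mean through its higher group alone. The 2 lower contigs averaged 0.34 and 0.50 CPM at 11 feedings, and the 2 higher ones 0.85 and 0.67 CPM at 6. Of the 16849 contigs with that mean, 371 qualified as lower and 196 as higher. None of the 4 passed edgeR's adjusted threshold, and they were chosen on this contrast, so their changes describe its extremes.

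SmedSXL_018662, 1519 bases long and a lost contig of late onset, was at 1.09, 2.55, 4.58 and 2.88 CPM in replicates 1, s1, s2 and s3 at 6 feedings. After 11 feedings the values were 0.81, 0.15, 0.20 and 0.20 CPM in replicates 1, s2, s3 and s4, from 12, 2, 3 and 4 counts, so counting error is large there. All 4 libraries at 11 were below all 4 at 6, and replicate 1 was the highest at 11 and the lowest at 6. The change of SmedSXL_018662 was -3.01 on the log2 scale (SE 0.52, 95% interval -4.11 to -1.91, edgeR adjusted p = 0.59, unadjusted 2.37e-05). Without replicate 1 at 11 feedings it was -3.80 and passed edgeR's threshold (adjusted p = 0.0215). DESeq2 and limma's voom, with all libraries, gave adjusted p = 0.00037 and 0.014 for it. Over all alternatives its adjusted p ran from 2.96e-10, with no filter on low counts, to 1.00. Its mean at 4 feedings was 12.3 ± 3.33 CPM (SD, n = 4). By 8 feedings the mean was 0.87 ± 0.35 CPM (SD, n = 4). Controls averaged 12.7 ± 1.62 CPM (SD, n = 3) at 6 feedings and 24.7 ± 11.1 CPM (SD, n = 4) at 11.

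SmedSXL_082648, 748 bases long and also a lost contig, was at 1.30, 5.99, 7.31 and 9.13 CPM in replicates 1, s1, s2 and s3 at 6 feedings. In replicates 1, s2, s3 and s4 at 11 feedings it was at 0.20, 0.67, 0.41 and 0.71 CPM. The groups do not overlap, and replicate 1 was the lowest of each. The values at 11 feedings came from 3, 9, 6 and 14 counts, so counting error is large there. The change of SmedSXL_082648 was -3.52 on the log2 scale (SE 0.68, 95% interval -4.95 to -2.10, edgeR adjusted p = 0.59, unadjusted 7.44e-05). DESeq2 gave adjusted p = 0.000401 and limma's voom 0.0239 for SmedSXL_082648, within a range of 1.43e-18 (no filter) to 1.00 over its alternatives. Its knock-down means at 4 and 8 feedings were 40.9 ± 28.7 and 1.57 ± 0.93 CPM (SD, n = 4 each), beside 90.6 ± 36.3 CPM (SD, n = 3) in controls at 6. Reads of this transcript may have been counted on more than 1 sequence, since 2 others correlated with it at r over 0.99. Its value is therefore uncertain.

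SmedSXL_015499, 3590 bases long and a remaining contig at 8 feedings, was at 0.41, 1.05, 1.05 and 0.88 CPM in replicates 1, s1, s2 and s3 at 6 feedings. At 11 feedings it was at 1.88, 3.74, 1.36 and 4.31 CPM in replicates 1, s2, s3 and s4. The groups do not overlap, and replicates s2 and s4 were the high ones at 11. The values at 6 feedings came from 6, 19, 17 and 11 counts, so counting error is large there. The change of SmedSXL_015499 was 1.73 on the log2 scale (SE 0.39, 95% interval 0.90 to 2.56, edgeR adjusted p = 0.59, unadjusted 0.000409). For SmedSXL_015499 the adjusted p was 0.0215 by DESeq2 and 0.00686 with no filter, and up to 1.00 under other alternatives. It averaged 1.72 ± 0.43 CPM (SD, n = 4) at 8 feedings, between the other groups, and 0.93 ± 0.69 CPM (SD, n = 4) in controls at 11. A further sequence correlated with it at r over 0.99, so its count is uncertain as well.

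SmedSXL_081045, 921 bases long and a remaining contig, was at 0.34, 0.78, 0.62 and 0.96 CPM in replicates 1, s1, s2 and s3 at 6 feedings. The values at 11 feedings were 1.01, 2.32, 1.16 and 2.33 CPM in replicates 1, s2, s3 and s4. The lowest value at 11 was just above the highest at 6. Those at 6 feedings came from 5, 14, 10 and 12 counts, so counting error is large there. The change of SmedSXL_081045 was 1.35 on the log2 scale (SE 0.38, 95% interval 0.55 to 2.14, edgeR adjusted p = 0.77, unadjusted 0.00239). Its adjusted p was 0.228 by DESeq2, 0.225 by limma's voom and 0.319 by edgeR with no filter. The knock-down mean at 8 feedings was 0.68 ± 0.13 CPM (SD, n = 4), near that at 6. Controls averaged 0.38 ± 0.15 CPM (SD, n = 3) at 6 and 1.57 ± 0.90 CPM (SD, n = 4) at 11 feedings. The fitted control change of 1.97 on the log2 scale was larger than the knock-down change.

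**Figure D5:**
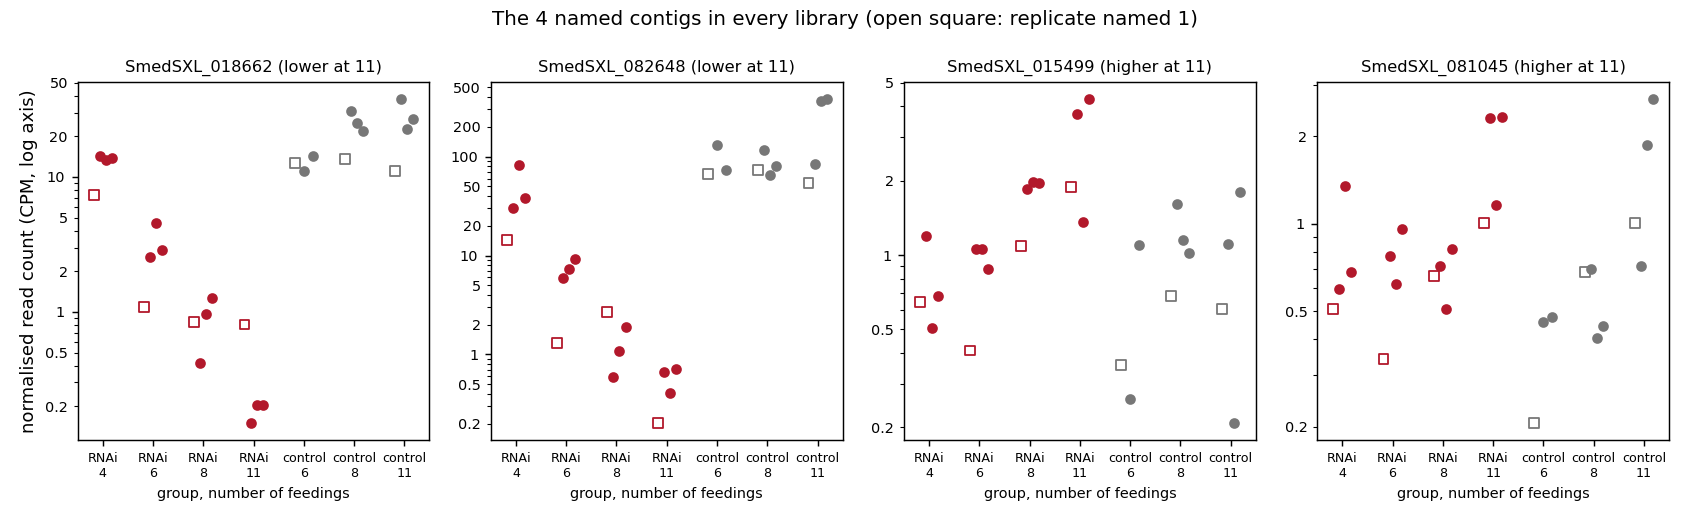
Normalised read count in CPM (y axis, log scale) of the 4 named contigs in every library, by group and number of feedings (x axis). The controls at 4 feedings are not drawn. Points in red are nhr-1 RNAi, points in grey control RNAi, and open squares the replicates named 1. SmedSXL_018662 went from a mean of 2.78 CPM at 6 feedings to 0.34 CPM at 11, and SmedSXL_015499 from 0.85 to 2.82 CPM.

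The same span of feedings in control RNAi gives the background. edgeR called 0 of 22331 SmedSXL contigs (0% called) between 11 and 6 feedings in the 15 control libraries. At an unadjusted p under 0.05 there were 2132, of which 1920 were higher and 212 lower. DESeq2 called 125 of the 18369 contigs that it gave an adjusted p, all higher. The median control change was -0.06 for lost contigs and -0.15 for raised contigs. The controls at 11 feedings were uneven, with the most abundant contig at 7.8% to 47.5% of the SmedSXL counts. For the difference between the knock-down and the control changes, edgeR called 0 of 23870 contigs (0% called, smallest adjusted p = 0.0919), with 3155 at an unadjusted p under 0.05, of which 2966 were more negative in the knock-down. The count of adjusted calls, 0 with all libraries, depended on single libraries. It was 981 more negative and 61 more positive of 23694 tested without control replicate 1 at 11 feedings. It was 44 more negative of 23736 without knock-down replicate 1 at 6 feedings, and 4 of 23733 without knock-down replicate 1 at 11. DESeq2 called 182 of the 17766 contigs that it gave an adjusted p, all more negative. No change from 6 to 11 feedings is therefore called particular to the knock-down here.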

How the data were processed

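The authors deposited 1 table of whole-number read counts on 177783 named reference sequences in 32 libraries, and these raw counts were used as deposited. Bowtie2 is named in the submitters' processing notes, with no version. No source used here names the reference build, the counting program or whether strand was used. A further row names no sequence and held 0% of the counts. All sample columns were matched by title.

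Counts were fitted with edgeR 4.0.16 in R 4.3.3 (TMM normalization, filterByExpr with a minimum count of 10, quasi-likelihood test, prior degrees of freedom 4.72) on the 16 knock-down libraries, with 1 mean per group. Tests used all 40955 sequences that passed the filter, and p-values were adjusted over all of them by the Benjamini-Hochberg method. Standard errors came from dividing the log2 change by the root of the F statistic. Normalised counts (CPM) used TMM factors of 31 libraries for class levels, summed counts, control levels and the printed values of named contigs. Factors of the 16 knock-down libraries served the spread, the principal components, the overlap of groups and the naming rule. They also served the knock-down levels of the contigs called by DESeq2 or limma's voom, whose control level used the 31. Log2 values used a prior count of 2. The script was tested on simulated data. DESeq2 1.42.0 and limma 3.58.1 were alternatives. A SmedASXL counterpart needed a total count within 5% and r over 0.95. Counts are not independent molecules, so intervals of single counts would cover counting error only. The contig classes, lists and libraries were chosen with earlier results of these data known. Named contigs were those of smallest unadjusted p in each direction with groups that did not overlap. Their mean over the 8 libraries had to be at least 1 CPM. The second of each pair correlated with the first at r under 0.99.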

Additional observations from a re-analysis of the deposited data

Results flagged for a closer look

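A library was taken as far from the others where its gap to the nearest, divided by the range of the group, passed Dixon's 95% critical value. Of 26 groups of 4 values examined, 2 had one. The level of the value sets a chance rate of about 1 in 20 for a single group, and the 26 groups share libraries and contigs, so they are not independent. For lost contigs 4- to 8-fold lower at 8 feedings, replicate 1 at 6 feedings stood at -2.30 on the log2 scale, while the other 3 libraries stood between -1.70 and -1.61. For SmedSXL_018662, replicate 1 at 11 feedings stood at 0.81 CPM, while the other 3 libraries stood between 0.15 and 0.20 CPM. Both values come from libraries named 1, and the labels do not say how these differ from the others.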

How the results depend on the processing

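The count of contigs called between 6 and 11 feedings was 0 in the edgeR fits with other scalings, with SmedSXL contigs alone, with the replicate block, with a term for names with s, with a robust prior and with other sets of libraries, except as follows (the robust prior and the fit without knock-down library s2 at 4 feedings were chosen after seeing the data). With no filter it was 147 lower and 22 higher of 90265 tested, and with the libraries named with s alone 41 lower and 1 higher of 20880. DESeq2 gave 34 lower and 2 higher and limma's voom 34 lower and 1 higher. Leaving out 1 library gave 0 to 6 lower and 0 higher, the 6 without replicate 1 at 11 feedings. With no filter, 95 lower and 24 higher contigs were called from 6 to 8 feedings and 11 lower and 2 higher from 8 to 11, where the s libraries alone gave 1 lower. In controls no filter gave 89 lower and 787 higher of 89337 tested, and DESeq2 125 higher of 18369 with an adjusted p. For the difference of changes, no filter gave 196 more negative of 92447 tested, and DESeq2 182 of 17766 with an adjusted p. For this difference, leaving out 1 library gave 0 to 981 more negative and 0 to 61 more positive. The cause of these differences was not tested. The replicate block changed no call. Under it the median change of lost contigs was -0.61. Over all alternatives this median ran from -0.61 to -0.25 and that of raised contigs from 0.18 to 0.48, the last for raised contigs at least 2-fold higher at 8 feedings. Leaving out 1 library gave 0.18 to 0.36 for raised and -0.02 to 0.07 for remaining contigs (0.0685 without replicate 1 and -0.0248 without s3 at 6 feedings), and total counts alone gave 0.12 for remaining contigs. The names were not taken to pair the libraries. In deviations from the group means, same-named libraries at 6 and 11 feedings correlated at 0.48 (1), -0.19 (s2) and 0.22 (s3). The 0.48 of the libraries named 1 was the highest of all pairs. They also correlated at 0.36 between 6 and 8 feedings and 0.34 between 8 and 11, where the other names gave -0.08 to 0.13. The libraries named 1 thus shared a deviation, and its cause was not tested.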
